A study of Mus musculus with 8 samples.

Results

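The genes described here build the DNA replication fork of mouse cells. They were chosen by name as the 37 gene symbols of the core replication machinery, though with earlier results of these data known. All 37 were found among the 18501 genes of the table. All 37 also passed the filter on low counts, which left 14359 genes for testing. By role they comprise 8 genes of origin licensing, 6 of helicase activation, 4 of DNA polymerase alpha-primase, 5 of polymerases delta and epsilon, 6 of the sliding clamp and its loader, 3 of the single-strand binding protein RPA, 2 of flap and nick processing and 3 of deoxynucleotide supply.

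Replication starts at origins that are licensed in G1 phase, when Cdc6 and Cdt1 load the ring-shaped MCM2-7 complex onto DNA. In S phase the ring is turned into an active helicase by Cdc45 and the GINS complex, polymerase alpha-primase lays down primers, and polymerases delta and epsilon extend them, held to DNA by the clamp PCNA. Transcripts of many of these genes accumulate as cells enter the cycle, under control of the E2F transcription factors, and in cartilage they mark proliferating chondrocytes.

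RNA came from rib cartilage cells of 10-day-old CD1 mice, released with collagenase, filtered and plated before TRIzol extraction, and was sequenced on the DNBSEQ platform. CT mutants carry a C>T base change, and CT wild types are their own wild-type group. CG mutants carry a mutation in the seed region of the 3p arm of Mir140, and CG wild types are the wild-type group of that line. The series design text describes both mutations as ways to overexpress the 5p arm of this microRNA, and each of the 4 groups has 2 libraries. The labels do not name the base that the C>T change affects or the number of founder animals, and they leave unsaid if the libraries of one group are separate animals, pools or cultures. The Y-linked gene Ddx3y was counted 3512 and 30 times in CT mutants, 3669 and 10 in CT wild types, 2231 and 2360 in CG mutants and 2 and 2511 in CG wild types. In all groups but the CG mutants the libraries therefore came from different mice or pools. Ddx3y was high in both CG mutant libraries but in only one of the CG wild types, so it was not balanced between these groups. The part of sex in their differences was not tested.

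Total counts ran from 26536844 to 28678637 per library. The line was the main division of the data: the first principal component held 64.5% of the variance and separated the 4 CT from the 4 CG libraries. The second held 12.2% and set 1 CG mutant library apart, at -47 for CG mutant 1 against 8.36 for CG mutant 2. Because each line has its own libraries, the line and any batch in which it was raised, cultured or sequenced cannot be told apart. In bulk RNA, fewer cells of a type and less RNA per cell cannot be told apart either.

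Promoter sequences are shown first because E2F-type motifs were frequent in them. RefSeq promoters (GRCm38.p6, 250 bases before to 50 after each start) were found for 30 of the 37 genes, with 35 promoters in all. The E2F-type motif TTTNNCGC, on either strand, lay in 14 of these 35 promoters (40.0%), against 1698 of all 32851 promoters (5.17%). Below are, each 300 bases long and 5′ to 3′ on the strand of the gene, the 5 genes with a match and the smallest p between CT and CG mutants, followed by Mcm7, which was added after its values were seen. Capitals mark the E2F-type matches. Lig1 has 3 and Mcm7 has 2 promoters in the table, of which 1 each holds a match and is shown.
Mcm3 promoter, chr1:20820263-20820562, minus strand: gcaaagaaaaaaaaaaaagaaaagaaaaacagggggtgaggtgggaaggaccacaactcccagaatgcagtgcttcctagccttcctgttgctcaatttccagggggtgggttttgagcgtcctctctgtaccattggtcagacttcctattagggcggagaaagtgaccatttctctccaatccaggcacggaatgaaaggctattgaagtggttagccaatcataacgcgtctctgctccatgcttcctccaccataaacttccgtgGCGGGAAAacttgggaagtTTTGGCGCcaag
Mcm6 promoter, chr1:128359656-128359955, minus strand: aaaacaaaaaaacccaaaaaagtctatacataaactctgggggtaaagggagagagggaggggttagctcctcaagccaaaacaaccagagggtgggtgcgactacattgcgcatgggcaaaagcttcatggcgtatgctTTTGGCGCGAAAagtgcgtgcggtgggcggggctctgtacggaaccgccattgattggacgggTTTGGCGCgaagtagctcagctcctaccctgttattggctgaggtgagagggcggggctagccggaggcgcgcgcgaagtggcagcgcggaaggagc
Mcm5 promoter, chr8:75109259-75109558, plus strand: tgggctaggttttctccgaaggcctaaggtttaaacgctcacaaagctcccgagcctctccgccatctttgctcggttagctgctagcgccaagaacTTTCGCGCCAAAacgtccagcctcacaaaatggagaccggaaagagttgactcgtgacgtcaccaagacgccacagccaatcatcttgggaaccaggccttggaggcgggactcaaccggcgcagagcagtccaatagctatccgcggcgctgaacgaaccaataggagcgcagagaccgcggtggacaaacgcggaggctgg
Cdt1 promoter, chr8:122567765-122568064, plus strand: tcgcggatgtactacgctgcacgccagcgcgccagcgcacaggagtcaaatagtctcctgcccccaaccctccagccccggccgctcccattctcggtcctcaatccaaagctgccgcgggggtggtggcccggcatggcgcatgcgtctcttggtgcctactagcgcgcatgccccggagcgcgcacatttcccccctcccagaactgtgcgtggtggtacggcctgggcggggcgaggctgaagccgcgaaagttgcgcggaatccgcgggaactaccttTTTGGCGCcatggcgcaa
Lig1 promoter, chr7:13278576-13278875, plus strand: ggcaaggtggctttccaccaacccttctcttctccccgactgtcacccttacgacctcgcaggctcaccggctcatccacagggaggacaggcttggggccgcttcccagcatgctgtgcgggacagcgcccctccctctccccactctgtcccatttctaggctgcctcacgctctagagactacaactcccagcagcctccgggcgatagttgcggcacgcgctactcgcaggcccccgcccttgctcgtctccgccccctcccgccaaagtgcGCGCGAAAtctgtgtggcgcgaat
Mcm7 promoter, chr5:138171834-138172133, minus strand: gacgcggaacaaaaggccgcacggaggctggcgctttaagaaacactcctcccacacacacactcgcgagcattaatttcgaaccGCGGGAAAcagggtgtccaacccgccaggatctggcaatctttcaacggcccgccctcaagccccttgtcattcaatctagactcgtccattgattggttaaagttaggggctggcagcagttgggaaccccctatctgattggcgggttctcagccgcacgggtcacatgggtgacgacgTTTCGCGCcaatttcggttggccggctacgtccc

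In the Mcm6 and Mcm5 promoters matches on opposite strands overlap, so that a single stretch of capitals holds 2 of them. The CCAAT box, CCAAT on either strand, lay in 57.1% of the replication gene promoters and 37.4% of all promoters. The motif TTTGAA, the CHR element of many late cell-cycle genes, lay in 14.3% and 17.9%. Of the replication genes in the promoter table, the E2F-type motif was present in 11 of the 23 that were higher in the CT line in at least 1 comparison below and in 3 of the 7 others (Mcm7, Gins3 and Tyms).

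Many replication genes were expressed at higher levels in the CT line than in the CG line, among mutants and among wild types. CT mutants had 25 of the 37 genes higher than CG mutants and none lower, by edgeR's quasi-likelihood test with a Benjamini-Hochberg adjusted p under 0.05. Of all genes tested, 36.1% differed in that comparison, 17.9% being higher and 18.2% lower in CT mutants. CT wild types had 18 of the 37 genes higher than CG wild types and 1 lower (Tyms). There, 33.7% of all genes differed, 17% being higher and 16.8% lower in CT wild types. The median log2 fold change of the replication genes was 0.69 between the mutants, against -0.01 for all genes tested, and 0.51 between the wild types, against 0.00 for all genes.

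Both comparisons called the same 15 genes higher (40.5% of the 37, against 12.9% of all genes tested). At least 1 comparison called 28 higher, and neither called 8 in any direction. The shares of all genes for these last counts were not computed. Taken singly, the comparisons called 17.9% (mutants) and 17% (wild types) of all genes higher. Without reference to any test, all 4 CT libraries lay above all 4 CG libraries for 24 of the 37 genes (64.9%), against 23.7% of all genes tested. Within the mutants the CT libraries were both above for 31 genes and both below for 1, against 35.5% and 35.6% of all genes, and within the wild types for 26 and 1, against 35.7% and 35.5%. The counts changed when single libraries were left out. Each such fit leaves 1 library in a group, so calls can be lost through the smaller number of libraries alone. Between the wild types 8 genes passed when replicate 1 of the CG wild types was left out, 10 when replicate 2 of the CG wild types was, and 10 when replicate 2 of the CT wild types was. Between the mutants 13 passed without CT mutant replicate 2. Mcm2, Mcm3, Mcm4, Mcm5, Mcm6, Cdt1 and Rrm1 were higher in CT in all 16 alternative analyses of both comparisons.

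**Figure D1:**
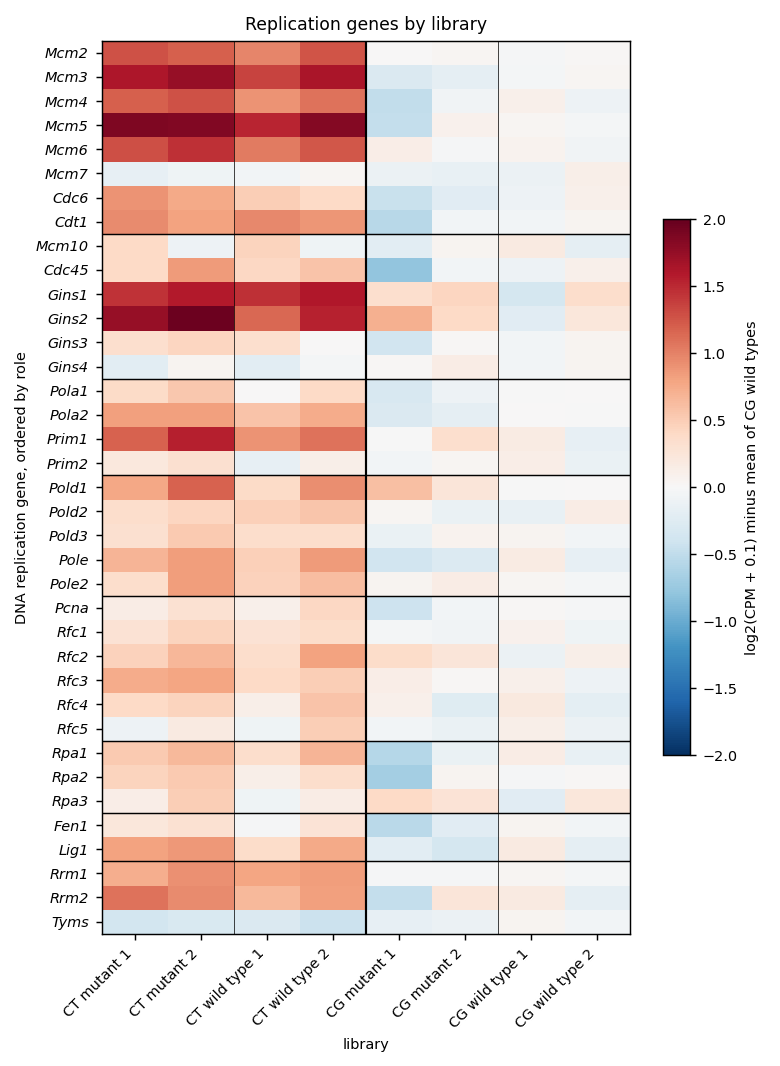
Heat map of the 37 replication genes (rows, grouped by role between black lines) in the 8 libraries (columns), coloured by log2(CPM + 0.1) minus the mean of the CG wild types. The licensing genes Mcm2 to Mcm6 are red in every CT library, while Mcm7, Gins4 and Tyms are pale or blue in both lines.

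Licensing genes had the highest median of all roles in both comparisons. Between the mutants 7 of 8 were higher in CT and between the wild types 6 of 8, with median log2 fold changes of 1.28 and 1.06. Mcm3, a subunit of the MCM2-7 ring, stood at 72.5 and 79.0 CPM (read counts scaled to a common library size) in CT mutants and at 19.3 and 20.8 CPM in CG mutants. In the wild types Mcm3 stood at 60.5 and 73.3 CPM in CT and 23.1 and 24.2 CPM in CG. The lowest CT library lay far above the highest CG library. Mcm3 was 3.78-fold higher in CT mutants than in CG mutants (log2 fold change 1.92 ± 0.12 SE, adjusted p = 0.00012) and 2.83-fold higher in CT wild types than in CG wild types (1.50 ± 0.12, adjusted p = 0.000227).

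Mcm5, another subunit, showed the largest log2 fold change of the 37 genes in both comparisons. It had 28.7 and 28.6 CPM in CT mutants and 5.61 and 8.28 CPM in CG mutants, and 22.7 and 28.1 CPM in CT wild types and 8.08 and 7.58 CPM in CG wild types. No CT library overlapped a CG library. The differences were 4.12-fold between the mutants (2.04 ± 0.19, adjusted p = 0.000412) and 3.25-fold between the wild types (1.70 ± 0.19, adjusted p = 0.000831).

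The subunits Mcm2, Mcm4 and Mcm6 were higher in CT by 1.21, 1.51 and 1.33 on the log2 scale between the mutants and by 1.12, 0.99 and 1.15 between the wild types. Cdt1, which brings the ring to origins, had 29.8 and 26.9 CPM in CT mutants and 10.4 and 14.8 CPM in CG mutants. In the wild types it had 30.0 and 28.4 CPM in CT and 14.8 and 15.9 CPM in CG. Its CT libraries were all above its CG libraries, with log2 fold changes of 1.17 ± 0.17 between the mutants and 0.93 ± 0.17 between the wild types. Cdc6, the ATPase that works with Cdt1, was the lowest of the 37 genes per length, at 0.721 FPKM over the groups. It was higher in CT mutants than in CG mutants (1.22 ± 0.26, adjusted p = 0.00938). Between the wild types its log2 fold change of 0.47 ± 0.26 did not pass (adjusted p = 0.194).

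Mcm7 differed from its 5 partners in the ring. It had 51.4 and 54.6 CPM in CT mutants and 53.5 and 52.0 CPM in CG mutants, and 56.0 and 59.4 CPM in CT wild types and 53.4 and 62.8 CPM in CG wild types. The CT and CG libraries overlapped, and the log2 fold changes were 0.01 ± 0.10 between the mutants (adjusted p = 0.961) and -0.01 ± 0.10 between the wild types (adjusted p = 0.947). Over the 16 alternative analyses they ranged from -0.04 to 0.24 between the mutants and from -0.13 to 0.12 between the wild types, and none passed. The promoter of Mcm7 printed above holds 2 E2F-type matches, as those of Mcm3 and Mcm5 do, and is the 1 of its 2 promoters in the table that holds any.

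Per length, in the FPKM that the authors deposited, Mcm7 stood near the mean of its 5 partners in CT cells and well above it in CG cells. The ratio of Mcm7 to the mean of Mcm2 to Mcm6 was 1.05 and 1.06 in CT mutants, 1.37 and 1.24 in CT wild types, 3.08 and 2.84 in CG mutants and 2.80 and 3.43 in CG wild types. This ratio is taken within a library and so does not depend on scaling between libraries. It was chosen after the values were seen and was not tested. The mature protein ring holds the 6 subunits in equal numbers, which is background and was not measured here.

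**Figure D2:**
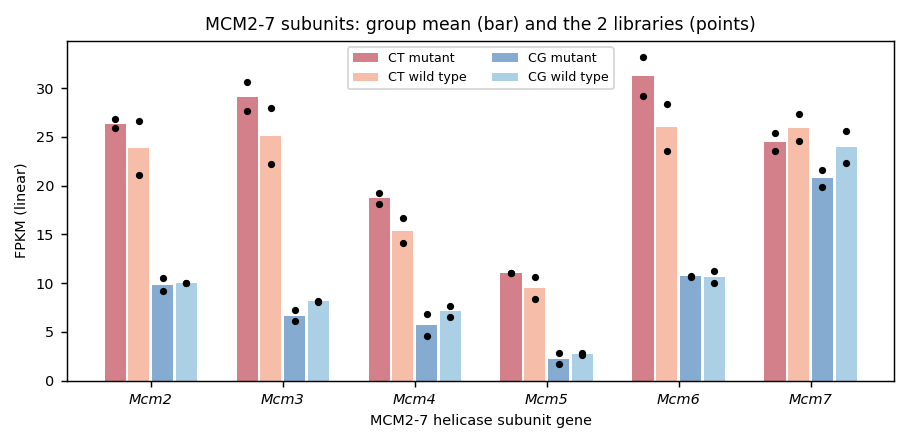
FPKM (linear axis) of the 6 MCM2-7 subunit genes, with bars for group means and points for the 2 libraries of each group. For Mcm2 to Mcm6 all CT points lie above all CG points, with Mcm5 between 8.36 and 11.1 FPKM in CT libraries and 1.72 and 2.85 FPKM in CG libraries, while the Mcm7 points run from 19.9 to 27.3 FPKM across all groups.

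Genes of helicase activation were less uniform: 3 of 6 were higher in CT between the mutants and 2 of 6 between the wild types, with medians of 0.80 and 0.35. Gins2, a GINS subunit, had 4.54 and 5.31 CPM in CT mutants and 2.16 and 1.72 CPM in CG mutants, and 2.96 and 3.94 CPM in CT wild types and 1.09 and 1.52 CPM in CG wild types. All CT libraries lay above all CG libraries. The differences were 2.54-fold between the mutants (1.35 ± 0.27, adjusted p = 0.00735) and 2.66-fold between the wild types (1.41 ± 0.28, adjusted p = 0.0081). The call between the mutants was lost without CT mutant replicate 2 (1.23) and that between the wild types without CG wild type replicate 1 (1.18).

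Gins1, which belongs to the same 4-subunit complex, was higher in CT in both comparisons (1.23 ± 0.34, adjusted p = 0.0254 between the mutants and 1.65 ± 0.35, adjusted p = 0.0102 between the wild types) but was low, at 1.63 to 1.84 CPM in CT libraries and 0.40 to 0.76 CPM in CG libraries. Gins4 was at 10.8 and 13.0 CPM in CT mutants and 12.7 and 13.9 CPM in CG mutants, and at 10.8 and 12.1 CPM in CT wild types and 12.0 and 13.0 CPM in CG wild types. Its libraries overlapped, with log2 fold changes of -0.16 ± 0.14 and -0.12 ± 0.14, neither of which passed. Gins3 (0.56 between the mutants and 0.19 between the wild types) and the helicase activation factor Mcm10 (0.25 and 0.20) did not pass either. Cdc45, the helicase cofactor, was higher in CT mutants than in CG mutants (1.03 ± 0.28, adjusted p = 0.0228) and did not pass between the wild types (0.50 ± 0.28, adjusted p = 0.198).

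Of polymerase alpha-primase, 3 of 4 genes were higher in CT between the mutants and 2 of 4 between the wild types. Pola2, the accessory subunit, had 12.2 and 12.1 CPM in CT mutants and 5.57 and 5.99 CPM in CG mutants. In the wild types Pola2 had 10.2 and 11.5 CPM in CT and 6.85 and 6.78 CPM in CG. The lines did not overlap, and the differences were 2.10-fold between the mutants (1.07 ± 0.14, adjusted p = 0.00119) and 1.59-fold between the wild types (0.67 ± 0.14, adjusted p = 0.00898), the second being lost without CG wild type replicate 1 or 2 (0.67 and 0.66). Estimated counts of Pola2 were not whole in 2 libraries, so some of its reads may have been divided with another gene. Prim1, the catalytic primase subunit, was higher in CT in both comparisons (1.24 ± 0.23 and 1.01 ± 0.24), and the catalytic polymerase subunit Pola1 between the mutants (0.68 ± 0.18, adjusted p = 0.0202, against 0.23 between the wild types). Prim2, the other primase subunit, did not pass (0.29 between the mutants and -0.02 between the wild types).

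Polymerases delta and epsilon, which extend the lagging and leading strands, had 3 of 5 genes higher in CT mutants and 4 of 5 in CT wild types. Pole, the catalytic subunit of epsilon, had 8.17 and 9.07 CPM in CT mutants and 3.82 and 4.16 CPM in CG mutants, and 7.05 and 9.21 CPM in CT wild types and 5.69 and 4.47 CPM in CG wild types. CT libraries were again all above CG libraries. Pole was 2.16-fold higher in CT mutants (1.11 ± 0.21, adjusted p = 0.00502) and 1.60-fold higher in CT wild types (0.68 ± 0.20, adjusted p = 0.0347). The difference between the wild types was called in 7 of 16 alternatives, and was lost without CT mutant replicate 1 or 2 (0.68 each), replicate 1 (0.86) or 2 (0.52) of the CG wild types, or replicate 2 of the CT wild types (0.47).

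Pold2, the small subunit of delta, was higher in CT in both comparisons (0.44 ± 0.13 between the mutants and 0.51 ± 0.12 between the wild types). The third delta subunit gene, Pold3, passed between the mutants only (0.46 ± 0.12, against 0.36 ± 0.12 and adjusted p = 0.0589 between the wild types). The catalytic delta subunit Pold1 passed between the wild types (0.69 ± 0.22, adjusted p = 0.0466) and not between the mutants (0.56 ± 0.22, adjusted p = 0.0796). The epsilon subunit Pole2 behaved likewise, at 0.55 ± 0.18 (adjusted p = 0.0467) between the wild types and 0.52 ± 0.18 (adjusted p = 0.0548) between the mutants. These last pairs of values lie within an SE of each other, and no difference between the comparisons passed its own test.

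The clamp and its loader showed smaller differences, with 3 of 6 genes higher in each comparison and medians of 0.44 between the mutants and 0.34 between the wild types. Rfc3, a loader subunit, had 11.4 and 11.8 CPM in CT mutants and 7.48 and 6.95 CPM in CG mutants, and 9.03 and 9.59 CPM in CT wild types and 7.32 and 6.35 CPM in CG wild types. No CT library overlapped a CG library. The log2 fold change was 0.69 ± 0.14 between the mutants (adjusted p = 0.00804) and was lost without CT mutant replicate 2 (0.67). It was 0.45 ± 0.14 between the wild types (adjusted p = 0.0456), where only 6 of 16 alternatives kept the call and leaving out any CT library or either CG wild type library ended it (0.35 to 0.55).

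Pcna, the clamp itself, was the most abundant of the 37 genes per length, at 101 FPKM over the groups. It had 122 and 136 CPM in CT mutants and 82.9 and 105 CPM in CG mutants, and 118 and 146 CPM in CT wild types and 112 and 108 CPM in CG wild types. The lowest CT library was just above the highest CG library. Pcna passed between the mutants (0.45 ± 0.14, adjusted p = 0.042) and not between the wild types (0.26 ± 0.14, adjusted p = 0.195). The large loader subunit Rfc1 was higher in CT in both comparisons (0.43 ± 0.10 and 0.33 ± 0.10), and the loader subunit Rfc2 between the wild types (0.60 ± 0.18, adjusted p = 0.037, against 0.27 ± 0.18 between the mutants). The remaining loader subunits Rfc4 (0.49 between the mutants and 0.35 between the wild types) and Rfc5 (0.14 and 0.23) did not pass, and Rfc4 had counts that were not whole in 7 libraries.

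RPA coats single-stranded DNA at the fork. Its large subunit Rpa1 had 66.6 and 73.2 CPM in CT mutants and 31.4 and 42.4 CPM in CG mutants, and 59.4 and 74.4 CPM in CT wild types and 51.8 and 41.7 CPM in CG wild types. CT libraries lay above CG libraries in both comparisons, with the wider gap between the mutants. Rpa1 was 1.89-fold higher in CT mutants (0.92 ± 0.18, adjusted p = 0.00596) and the 1.43-fold difference between the wild types did not pass (0.52 ± 0.18, adjusted p = 0.0546), though it did in 7 of 16 alternatives, among them those without CG mutant replicate 1 or 2 (0.52 each). The middle subunit Rpa2 passed between the mutants (0.76 ± 0.23, adjusted p = 0.0336) and not between the wild types (0.24 ± 0.23), and the small subunit Rpa3 in neither (-0.01 and 0.03).

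Both genes that finish lagging-strand fragments passed between the mutants and neither between the wild types, a contrast that did not pass its own test (adjusted p = 0.967 for both). Lig1, the ligase that seals the nicks, had 10.9 and 11.4 CPM in CT mutants and 5.32 and 4.85 CPM in CG mutants, and 8.01 and 10.5 CPM in CT wild types and 6.99 and 5.47 CPM in CG wild types. The 2 lines did not overlap. Lig1 was 2.20-fold higher in CT mutants (1.13 ± 0.19, adjusted p = 0.00357), and its difference between the wild types (0.57 ± 0.19, adjusted p = 0.053) did not pass except without CT wild type replicate 1 (0.75) and in 2 analyses of FPKM (0.50 and 0.67). Fen1, the flap endonuclease, was higher in CT mutants (0.65 ± 0.17, adjusted p = 0.0179) and differed by 0.13 ± 0.16 between the wild types, where its libraries overlapped.

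Deoxynucleotides come from ribonucleotide reductase, made of Rrm1 and Rrm2, and from thymidylate synthase, encoded by Tyms. Rrm1 had 23.3 and 26.6 CPM in CT mutants and 13.9 and 13.8 CPM in CG mutants, and 24.5 and 25.2 CPM in CT wild types and 14.5 and 13.6 CPM in CG wild types. The groups of a line were close to each other and far from the other line. Rrm1 was 1.80-fold higher in CT mutants (0.85 ± 0.11, adjusted p = 0.00135) and 1.76-fold higher in CT wild types (0.82 ± 0.11, adjusted p = 0.00188). Rrm2, the small subunit, passed between the mutants (1.11 ± 0.26, adjusted p = 0.0137) and not between the wild types (0.74 ± 0.26, adjusted p = 0.0638).

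Tyms ran the other way. It had 24.0 and 24.8 CPM in CT mutants and 27.4 and 28.5 CPM in CG mutants, and 25.2 and 22.9 CPM in CT wild types and 32.0 and 29.7 CPM in CG wild types. All CT libraries lay below all CG libraries in CPM, but overlapped them in FPKM, at 6.59 to 7.25 FPKM in CT and 6.50 to 8.40 FPKM in CG. Tyms was lower in CT wild types (-0.36 ± 0.10, adjusted p = 0.029, called in 9 of 16 alternatives) and did not pass between the mutants (-0.20 ± 0.10, adjusted p = 0.165, with a range of -0.23 to 0.014 over the alternatives). Its estimated counts were not whole in any of the 8 libraries, so its level is uncertain where reads were divided with a near-identical copy.

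**Figure D3:**
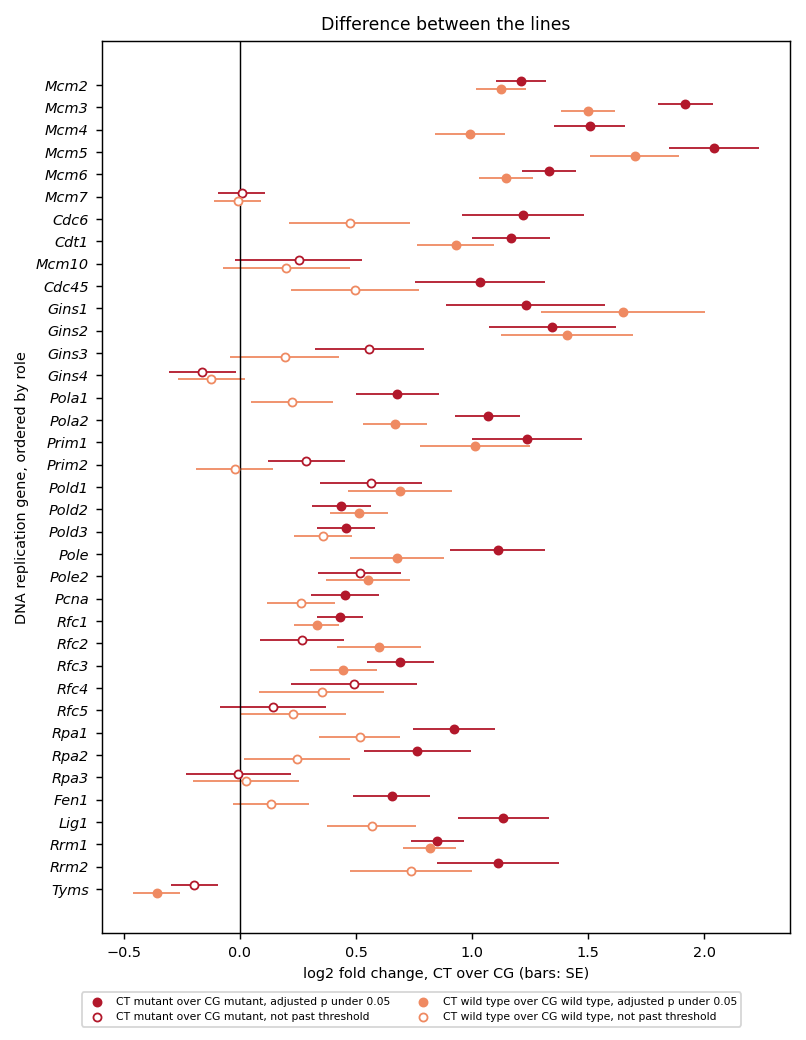
Log2 fold changes with SE bars of the 37 genes (rows, ordered by role) for CT mutants over CG mutants (dark red) and CT wild types over CG wild types (orange), with filled points where the adjusted p is under 0.05. Points lie right of 0 for 34 genes between the mutants and 33 between the wild types, and reach 2.04 and 1.70 for Mcm5.

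Other lists of cell-cycle genes are set beside the 36.1% of all genes tested that differed between the mutants and the 33.7% that differed between the wild types. Among 15 genes of origin recognition and firing, 9 were higher and 1 lower in CT mutants than in CG mutants, and 4 higher and 1 lower in CT wild types than in CG wild types. In either direction these are 66.7% and 33.3% of the list, the second a share near that of all genes. The genes called higher alone stand beside 17.9% and 17% of all genes called higher in CT mutants and CT wild types. Orc1 and Orc4, subunits of the origin recognition complex, were higher by 1.34 and 0.60 on the log2 scale between the mutants and by 0.95 and 0.48 between the wild types. Cdc7, the kinase that fires licensed origins, was higher by 1.19 and 0.87. The member lower in CT was Recql4, a helicase that acts in origin firing (-1.67 ± 0.31 between the mutants and -1.34 ± 0.30 between the wild types). Estimated counts of Recql4 and Orc4 were not whole in any library, so some of their reads may have been divided with another gene.

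Of 26 other replisome and fork genes, 16 were higher and 1 lower in CT mutants, and 15 higher and 1 lower in CT wild types (65.4% and 61.5% of the list). Uhrf1, which guides maintenance methylation of new DNA, was 4.92-fold higher between the mutants (2.30 ± 0.17) and 3.93-fold higher between the wild types (1.98 ± 0.17). Top2a, the topoisomerase that untangles daughter strands, was higher by 1.37 and 1.36, and the fork protection gene Tipin by 0.92 and 0.50. The member lower in CT was Pold4, the smallest subunit of polymerase delta (-1.02 between the mutants and -0.72 between the wild types). Of 12 other genes of nucleotide supply, 3 were higher and 1 lower in CT mutants and 3 were higher in CT wild types. Counted in either direction, these shares, 33.3% and 25%, lie below those of all genes. The 3 of 12 called higher in each comparison stand beside 17.9% and 17% of all genes called higher. Shmt1 and Umps, of folate and pyrimidine metabolism, were higher in both comparisons (0.98 and 0.73 between the mutants, 1.14 and 0.75 between the wild types).

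Of 29 E2F, RB and G1/S regulators, 28 were tested and Cdkn2a was not. CT mutants had 17 higher and 2 lower than CG mutants, and CT wild types 13 higher and 1 lower than CG wild types (67.9% and 50% of those tested). Cdk2, the kinase of S-phase entry, had 29.2 and 29.7 CPM in CT mutants and 11.4 and 13.1 CPM in CG mutants, and 29.6 and 29.8 CPM in CT wild types and 14.2 and 14.1 CPM in CG wild types. It was higher by 1.26 ± 0.11 and 1.07 ± 0.11, without overlap of the lines. Its partner Ccne2, cyclin E2, was higher by 2.47 and 1.86. Cdkn2b, an inhibitor of the G1 kinases, was lower in CT, at -1.73 ± 0.19 between the mutants and -0.67 ± 0.18 between the wild types.

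Of 24 mitosis genes, 14 were higher in CT mutants and 12 in CT wild types, none was lower (58.3% and 50% of the list), and the medians were 1.12 and 0.90. The centromeric histone Cenpa was higher by 1.73 and 1.22, the mitotic kinase Cdk1 by 2.05 and 1.34, and the midbody motor Kif23 by 1.38 and 0.87.

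Most erythroid, neutrophil and endothelial markers were also higher in the CT line. Erythroid markers summed to 786 and 801 CPM in CT mutants and, in CT wild types, to 1521 and 866 CPM, against 2.9 and 11.6 CPM in CG mutants and 10.8 and 16.8 CPM in CG wild types. All 6 were higher in CT mutants than in CG mutants and 4 of 6 were higher in CT wild types than in CG wild types. The other 2, Hbb-bs and Hbb-bt, had log2 fold changes below 0 between the wild types, neither of which passed. Hbb-bs had 9 to 118 counts in CT wild types and 92 to 169 in CG wild types. Neutrophil markers summed to 61.2 and 76.6 CPM in CT mutants, in CT wild types to 198 and 139 CPM, to 9.0 and 21.1 CPM in CG mutants and 16.4 and 20.2 CPM in CG wild types, with 4 of 6 higher in each comparison and Camp lower between the mutants. Endothelial markers summed to 52.5 to 98.1 CPM over the CT libraries and 10.9 to 33.2 CPM over the CG libraries, with 4 of 5 higher between the mutants and 3 of 5 between the wild types.

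The replication genes summed to 943 and 1018 CPM in CT mutants, in CT wild types to 856 and 988 CPM, to 549 and 602 CPM in CG mutants and 634 and 614 CPM in CG wild types. CT wild type 1 had the highest erythroid and neutrophil sums of all libraries and the lowest replication sum of the CT line. It also had the highest mitosis sum, 125 CPM, against 50.4 to 109 CPM in the other libraries. Chondrocyte markers were abundant in every library, at 40078 and 40605 CPM in CT mutants, in CT wild types at 59736 and 50064 CPM, at 53139 and 30812 CPM in CG mutants and 32799 and 31804 CPM in CG wild types, with 3 of 8 higher between the mutants and 4 of 8 between the wild types. Macrophage markers summed to 299 to 356 CPM over the CT libraries and 330 to 559 CPM over the CG libraries, fibroblast markers to 1958 to 2643 CPM and 2480 to 3343 CPM, and muscle markers to 14.2 to 20.1 CPM and 20.5 to 91.1 CPM. Cd14 made up most of the macrophage sum, and Dcn most of the fibroblast sum in the CG line. Above 0 in CT were 5 of 6 macrophage and 4 of 6 fibroblast markers in each comparison. Their median log2 fold changes were 0.75 and 0.97 between the mutants and 0.54 and 0.46 between the wild types. Between the mutants and between the wild types, 1 and 2 of 6 macrophage markers and 2 and 1 of 6 fibroblast markers were higher in CT. Lower in CT were 0 and 1 macrophage markers, 1 and 1 fibroblast markers, and 2 and 3 of the 4 muscle markers tested. The part of these cells in the difference of replication genes between the lines was not tested.

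**Figure D4:**
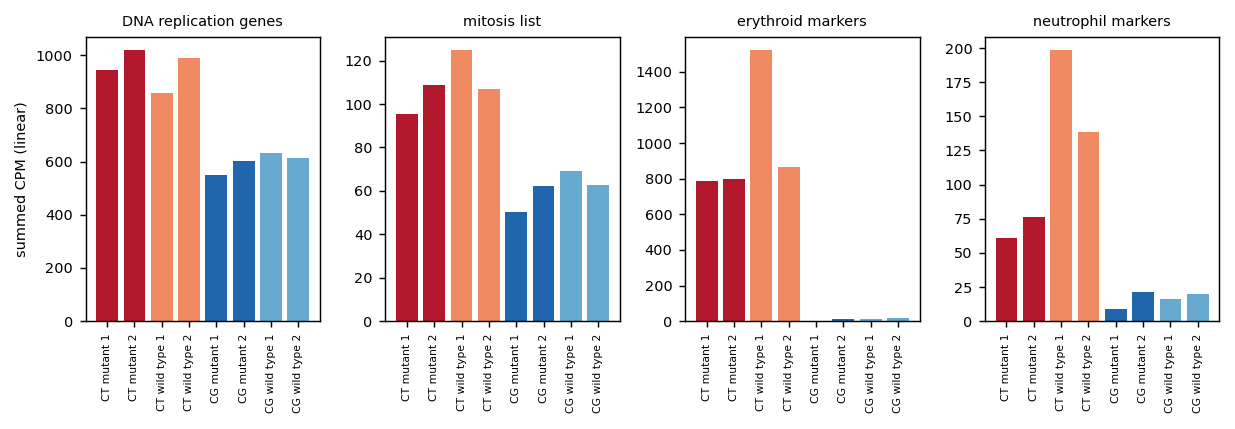
Summed CPM (linear axes) of the 37 replication genes, 24 mitosis genes, 6 erythroid markers and 6 neutrophil markers in each of the 8 libraries. CT libraries are higher in all 4 panels, and CT wild type 1 has the tallest bars for mitosis, erythroid and neutrophil genes but not for replication genes.

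The Mir140 mutations themselves moved no replication gene past the threshold. In CT mutants against CT wild types 0 of 37 genes passed edgeR's quasi-likelihood test, 0 had an unadjusted p under 0.05 and 0 passed in DESeq2; of all genes tested, 0.00696% passed in edgeR. Log2 fold changes ran from -0.19 to 0.51, with SE from 0.10 to 0.32, a median of 0.14 against 0.00 for all genes, and 29 of the 37 above 0. Both mutant libraries lay above both wild-type libraries for 12 genes and below for 2, shares to be read against 17.2% and 16.3% of all genes tested. The median was between 0.0597 and 0.26 when single libraries were left out.

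In CG mutants against CG wild types 0 of 37 genes passed in edgeR, 0 had an unadjusted p under 0.05 and 0 passed in DESeq2, with 0.00696% of all genes tested passing in edgeR. Log2 fold changes ran from -0.39 to 0.58, with SE from 0.10 to 0.38, a median of -0.09 against 0.00 for all genes, and 11 of the 37 above 0. Both mutant libraries lay above both wild-type libraries for 5 genes and below for 9, against 23.2% and 22.5% of all genes tested. CG mutant 1, the library that stood apart, was the lowest of all 8 for several genes, with Cdc45 at 2.41 CPM, Rrm2 at 2.58 CPM and Rpa1 at 31.4 CPM, against 4.05, 4.31 and 42.4 CPM in CG mutant 2. The median ran from -0.19 to 0.0035 when single libraries were left out.

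Gins2 had the largest log2 fold change of the 37 genes in each mutant comparison. In both lines its mutant libraries, given above, lay over the wild-type libraries. The log2 fold changes were 0.51 ± 0.26 in the CT line (adjusted p = 0.958) and 0.58 ± 0.29 in the CG line (adjusted p = 0.503). Over both lines the mean mutant effect on Gins2 was 0.54 ± 0.20 with an unadjusted p of 0.0242, which did not pass adjustment (adjusted p = 0.369).

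Averaged over both lines, 0 of 37 genes passed in edgeR, 2 had an unadjusted p under 0.05 (Gins2 and Pold1, which was at 0.37 ± 0.16) and 0 passed in DESeq2; of all genes tested 0% passed in edgeR. The median log2 fold change was -0.01, against 0.00 for all genes. Whether the mutant effect differed by line was tested directly, as the CG effect minus the CT effect. Here 0 of 37 genes passed in edgeR, 2 had an unadjusted p under 0.05 (Mcm3 at -0.42 ± 0.16 and Mcm4 at -0.52 ± 0.21, adjusted p = 0.967 for both) and 0 passed in DESeq2, with 0.0209% of all genes tested passing in edgeR and 0.0139% passing with a lower value. The median difference was -0.19, against 0.01 for all genes, and 28 of the 37 genes, among them all 8 licensing genes, had a value below 0. The licensing medians were -0.21 in the CG line and 0.17 in the CT line, with no licensing gene past the threshold in either. Between libraries of a group, the median log2 deviation of the 37 genes from their group means had a pooled SD of 0.092. It was -0.095 and 0.095 in CT wild types 1 and 2. Genes of a library are not replicates, so these medians and counts of genes around 0 are descriptions and were not tested.

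**Figure D5:**
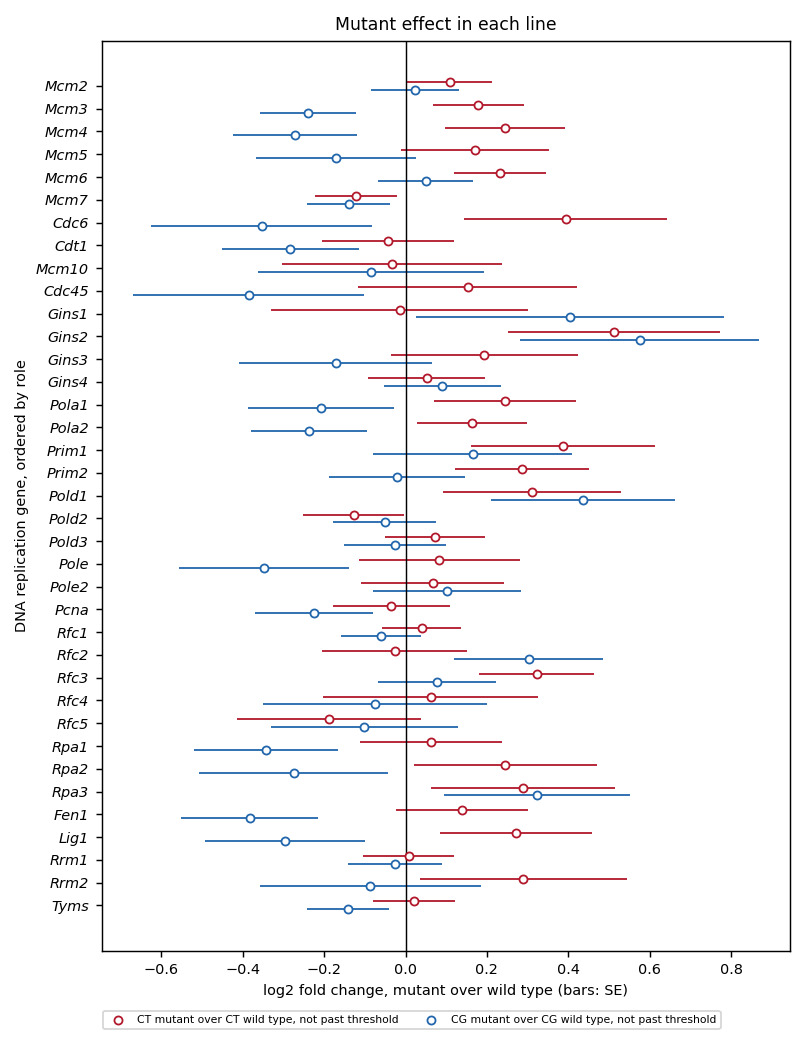
Log2 fold changes with SE bars of the 37 genes (rows, ordered by role) for CT mutants over CT wild types (red) and CG mutants over CG wild types (blue). All points are open because no gene passed the threshold, and the values lie between -0.39 and 0.58.

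The CG mutation lies in the seed of the 3p arm, so replication genes with a site for that seed are given on their own. The unmutated mature sequence in RefSeq, with the seed (bases 2 to 8) in capitals, is at chr8:107551288-107551308 on the plus strand of GRCm38.p6.
mmu-miR-140-3p: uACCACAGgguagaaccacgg

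A 7-base match to this seed, CTGTGGT, lay in the longest annotated 3′ UTR of 6 of the 37 genes (16.2%), against 3318 of 17423 genes (19.0%). They are Cdc6, Gins1, Gins2, Rfc2, Rpa1 and Tyms. In CG mutants against CG wild types their log2 fold changes were -0.35 ± 0.27, 0.40 ± 0.38, 0.58 ± 0.29, 0.30 ± 0.18, -0.34 ± 0.18 and -0.14 ± 0.10. These values fall on both sides of 0, and none passed. The level of either arm of the microRNA was not analysed here.

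The authors' deposited table of comparisons listed 23 of the 37 genes among its 2655 genes. In the authors' deposited table, 20 of these 23 had a q-value under 0.05 and a higher level in CT mutants than in CG mutants, and 14 in CT wild types than in CG wild types. The matching shares of all 2655 listed genes were not computed, and the rule by which genes were listed is not given. These counts are therefore a description and not a separate check. In the authors' deposited table, 0 of the 23 had a q-value under 0.05 in either comparison of mutants with their own wild types.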

How the data were processed

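Expression was measured by RNA sequencing in 8 libraries of 4 groups. Reads were aligned with HISAT2 2.0.4 to the mm9 build, per the submitters' processing notes; the counting tool and its annotation were not given in the sources used. The authors' deposited table holds an estimated count per gene and library, with no normalization, and, per the file headers, an FPKM value. Estimated counts, not whole for 2282 to 2518 genes per library, were rounded. The authors' deposited comparisons give log2 ratios and q-values for 2655 genes.

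Counts were tested with edgeR 4.0.16 (R 4.3.3): the default low-count filter, TMM factors, 4 group means over all 8 libraries, and quasi-likelihood F tests. The 4 residual degrees of freedom per gene were supplemented in these tests by information shared across genes. P-values were adjusted by Benjamini-Hochberg over all 14359 genes tested, with a threshold of 0.05. CPM take the TMM-scaled library size as their total. Each SE was the size of the log2 fold change over the root of its F statistic. The same procedure was run on simulated data, where few genes were changed, all in CT wild types, with spreads taken from this fit. That setting did not cover the large share of genes that differed between the lines. What the p-values measure is library-to-library spread, possibly technical in part. Alternatives were RLE factors, no filter, DESeq2 1.42.0, limma 3.58.1 on log2(FPKM + 1) with and without a filter and on log2(FPKM + 0.1), each library left out, a replicate block, and the 2 groups compared alone.

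The replication genes and the other lists were chosen with earlier results of these data known. Values in every library were given for the gene of each role with the smallest p between CT and CG mutants; Mcm5, Cdt1, Mcm7, Gins4, Pcna and Tyms were added after their values were seen. Up to 3 genes of each other list were named by the same rule, and Recql4, Pold4 and Camp after their values were seen. Promoters and the microRNA came from RefSeq and 3′ UTRs from GENCODE M21; the submitters' build differs, so measured features have no coordinates here. No pair of libraries was alike within sampling noise.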

Additional observations from a re-analysis of the deposited data

How the results depend on the processing

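Over 16 alternatives, the 37 genes gave 1184 values in the 2 line comparisons. Of the 704 values of genes that were called, 95 did not pass and 0 passed in the other direction; of the 480 values of genes that were not called, 30 passed. No replication gene passed in the 4 comparisons of mutant effects under any alternative that gave a value. Leaving out single libraries gave 8 to 21 called genes between the wild types and 13 to 26 between the mutants. It gave medians of 0.40 to 0.57 and 0.67 to 0.81 in these comparisons, -0.19 to 0.0035 and 0.0597 to 0.26 for the CG and CT mutant effects, -0.04 to 0.07 for their mean and -0.29 to -0.10 for their difference. With log2(FPKM + 0.1) the medians were -0.29 for the difference of effects, 0.64 between the wild types and 0.90 between the mutants; FPKM, which carry no TMM factor, moved the median of all genes to 0.13 and 0.21 in the line comparisons. Deviations of same-numbered libraries from their group means correlated at -0.09 (CG groups), 0.25 (CT groups), -0.08 (wild types) and 0.02 (mutants), so the numbers were not taken to pair libraries. With a replicate block, 15 genes were called between the wild types, 25 between the mutants and 0 for each mutant effect, with medians of 0.50, 0.69, -0.10 (CG), 0.14 (CT), 0.00 (mean) and -0.21 (difference). The SE of single genes, 0.10 to 0.38 for the mutant effects, limit what 2 libraries a group can show.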
